A study of Homo sapiens with 6 samples.

Results

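Peaks called with METTL3 and PRMT5 antibodies on chromatin were examined at 10 genes of the m6A machinery in LNCaP and PC3 cells. The genes are writers, erasers and a reader, chosen with earlier results of these data known, so they are not an independent panel. They are set against 20033 protein-coding genes on chromosomes 1 to 22, X and Y, and all 10 were found in the RefSeq gene table. A gene was counted as having a peak when the summit of the peak lay inside it or within 3 kb of its start or end on hg38. Where there was none, the nearest peak was taken. RBM15, an adaptor of the writer complex, had a PRMT5 peak at its promoter in both lines. The reader gene YTHDF1 had a PRMT5 peak at its promoter in LNCaP. A METTL3 peak in PC3 lay inside VIRMA, the scaffold of the writer complex. The other 7 genes had no peak in any list. A peak in at least 1 list was thus found at 3 of the 10 genes, against 16.7% of all protein-coding genes, and with so few genes nothing is read from the difference.

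LNCaP is an androgen-responsive human prostate cancer cell line and PC3 an androgen-independent one. The labels name no treatment, and both lines grew in the same medium. Each line gave 1 library with a METTL3 antibody, 1 with a PRMT5 antibody and 1 control, 6 libraries in all. The control is titled IgG and its antibody field names a secondary antibody. In the assay, an antibody on permeabilised cells directs Tn5 transposase to cut the DNA nearby, and the cut fragments are sequenced; 100000 cells and 16 PCR cycles went into each library. The authors called peaks for each antibody library with the control of its line as background, which gave 4 lists. On these chromosomes the LNCaP METTL3 list held 173 peaks and the LNCaP PRMT5 list 980, while the PC3 METTL3 list held 7453 and the PC3 PRMT5 list 1661. Read depth is unknown. With 1 library per group there was no spread between replicates and no test between antibodies or lines, and the absence of a peak says only that none was called at this depth. Of 8 luminal prostate genes 1 had a peak, in PC3 METTL3, where 11.6% of all protein-coding genes had one. Of 7 mesenchymal and basal genes 1 had a peak, in PC3 PRMT5, where 4.59% of all protein-coding genes had one, and of 6 genes of other cell types 0 had a peak. These counts do not check the identity of the lines.

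N6-methyladenosine, or m6A, is a methyl mark on adenosines inside messenger RNA. METTL3 adds it as the catalytic subunit of a nuclear complex with METTL14, which binds the RNA, while WTAP, VIRMA and ZC3H13 hold the complex together and RBM15 or its paralog RBM15B bring it to particular transcripts. FTO and ALKBH5 are demethylases, called erasers, and YTHDF1 is a cytoplasmic reader that binds the marked RNA. PRMT5 is an enzyme that methylates arginines symmetrically, on histones as well as on proteins of the splicing machinery. The peaks described here are antibody-directed signal on chromatin at the genes of this machinery. That the signal is occupancy by METTL3 or PRMT5 was not tested in these libraries. The peaks say nothing of m6A on the transcripts of these genes or of their expression.

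The promoter windows of the genes with a PRMT5 peak are shown because the summits lie in them. They are RefSeq sequences of GRCh38.p14, from 250 bases before to 50 bases after the start of the transcript, on the strand of the gene, with the letters CACGTG in capitals. CACGTG is the E-box core, which reads the same on both strands. The window of RBM15 is chr1:110339127-110339426 on the plus strand, and that of YTHDF1 is chr20:63216082-63216381 on the minus strand.
RBM15: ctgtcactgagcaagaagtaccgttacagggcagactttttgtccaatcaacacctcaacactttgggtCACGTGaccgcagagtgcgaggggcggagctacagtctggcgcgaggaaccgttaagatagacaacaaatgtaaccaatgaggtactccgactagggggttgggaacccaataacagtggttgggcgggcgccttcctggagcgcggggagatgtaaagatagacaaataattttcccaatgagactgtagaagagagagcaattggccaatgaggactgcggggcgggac
YTHDF1: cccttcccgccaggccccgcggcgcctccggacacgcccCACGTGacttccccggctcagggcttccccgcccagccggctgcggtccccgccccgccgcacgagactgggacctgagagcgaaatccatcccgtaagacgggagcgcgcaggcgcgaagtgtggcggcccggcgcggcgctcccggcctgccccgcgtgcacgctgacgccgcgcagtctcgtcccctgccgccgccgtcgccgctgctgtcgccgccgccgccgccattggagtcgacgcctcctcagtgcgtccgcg

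The LNCaP PRMT5 peak at RBM15 spanned chr1:110338861-110339372, a width of 512 bp, with a fold of 16.6. The fold is the authors' caller's value for the peak over the expected control signal. Its −log10 q was 26.7 and its −log10 p was 31.6. It ranked 40 by fold among the 980 LNCaP PRMT5 peaks, and 95.9% of that list had a lower fold. The PC3 PRMT5 peak at RBM15 spanned chr1:110339139-110339309, 171 bp, with a fold of 3.96, a −log10 q of 5.32 and a −log10 p of 9.68. It ranked 1477 of 1661, with a lower fold in 11.1% of the PC3 PRMT5 list, but with a lower −log10 q in 53.5% of it. The peak was therefore among the high ones by fold in LNCaP and among the low ones in PC3. The lists were called separately against different controls, so the folds stand side by side and are not a measured change between lines. With only peaks of a fold of at least 5, the PC3 peak at RBM15 would not count.

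The peaks of both lines covered the same place upstream of RBM15. The LNCaP summit lay 147 bp and the PC3 summit 172 bp upstream of the RBM15 start, 25 bp apart. All 171 bp of the PC3 peak lay inside the LNCaP peak and made up 33.4% of it. Over 303 overlapping pairs of LNCaP and PC3 PRMT5 peaks the median distance between summits was 37 bp, and 41.6% of the pairs had summits as near as those at RBM15. The 3.96-fold and 16.6-fold peaks cannot be given to RBM15 alone. RBM15-AS1, a long noncoding RNA gene on the minus strand, starts 206 bp upstream of RBM15, and the summits lay 59 bp (LNCaP) and 34 bp (PC3) beyond its start, between both starts. The upper end of LOC124904276, a gene known from predicted transcripts, lay 227 bp from the LNCaP summit and 202 bp from the PC3 summit, farther than the RBM15 start. No other gene of any type in the table was within 3 kb of either summit.

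The LNCaP PRMT5 peak at YTHDF1 spanned chr20:63216300-63216428, 129 bp, with a fold of 7.85, a −log10 q of 6.69 and a −log10 p of 11.2. It ranked 302 of 980 by fold, above 68.3% of the LNCaP PRMT5 list. Its summit lay 219 bp upstream of the YTHDF1 start, and no other gene of any type was within 3 kb. The PC3 PRMT5 list had no peak there. Its nearest peak had a summit 4.23 kb upstream of the YTHDF1 start, just outside the 3-kb limit, with a fold of 7.65, a −log10 q of 6.60 and a width of 318 bp. The LNCaP and PC3 summits were 4.01 kb apart, so the peaks of the lines did not coincide at YTHDF1 as they did at RBM15. With a limit of 5 kb the PC3 PRMT5 peak would count for YTHDF1, and PC3 PRMT5 would have 2 of the 10 genes, against 5.06% of all protein-coding genes.

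**Figure D1:**
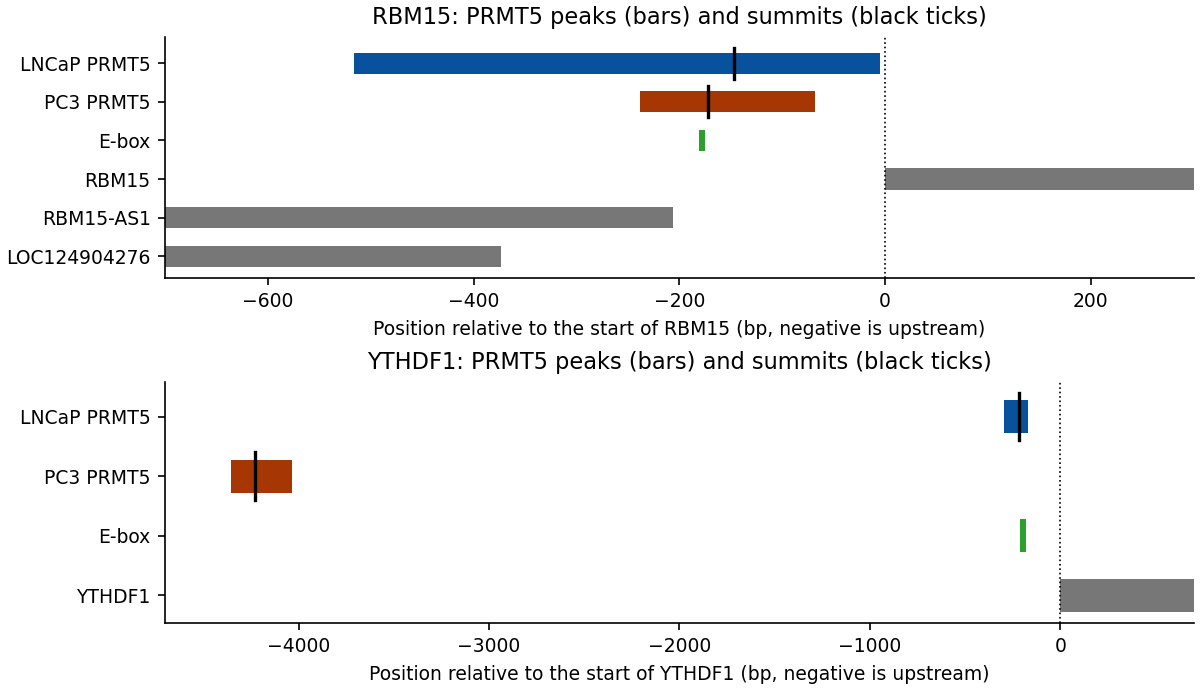
PRMT5 peaks (coloured bars) and their summits (black ticks) around the starts of RBM15 and YTHDF1, with the E-box (green) and the genes in reach (grey, drawn to the plot's edge); the horizontal axis is the position in bp from the start of the gene. At RBM15 the summits of LNCaP and PC3 lie 147 and 172 bp upstream of the start, and at YTHDF1 they lie 219 bp and 4.23 kb upstream.

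The single METTL3 peak at any of the 10 genes lay inside VIRMA and came from PC3. It spanned chr8:94519973-94520327, 355 bp, with a fold of 7.18, a −log10 q of 7.51 and a −log10 p of 12.3, and ranked 322 of 7453, above 95.7% of the PC3 METTL3 list by fold. The summit lay 32.4 kb from the lower and 33.3 kb from the upper end of the 65.8-kb gene, near its middle and far from either end. Whether it falls in an exon or an intron was not determined, as the gene table holds no exons. The surroundings of VIRMA were dense in PC3 METTL3 peaks. Counting from 1 Mb before to 1 Mb after the gene, there were 23 of them, against a median of 4 over all protein-coding genes, and 0.774% of these genes had at least as many. The part of this density in the peak at VIRMA was not tested. None of the other lists had a peak in VIRMA, and the nearest were 228 kb away in PC3 PRMT5, 3.09 Mb in LNCaP PRMT5 and 6.81 Mb in LNCaP METTL3.

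**Figure D2:**
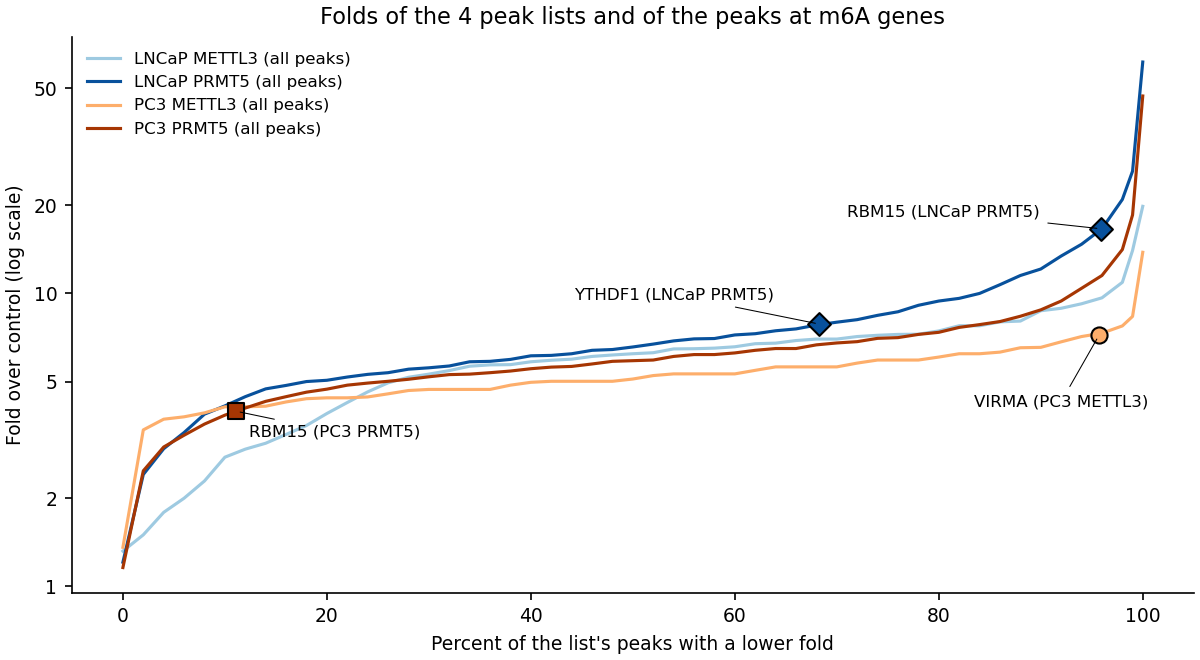
Fold over control (log scale) against the percent of a list's peaks with a lower fold, for all peaks of the 4 lists (lines) and for the 4 peaks at m6A machinery genes (symbols). RBM15 sits at 95.9% of the LNCaP PRMT5 list and at 11.1% of the PC3 PRMT5 list, YTHDF1 at 68.3% of the LNCaP PRMT5 list and VIRMA at 95.7% of the PC3 METTL3 list.

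By list, the counts of the 10 genes with a peak were small, and they stand beside the share of all protein-coding genes that met the same rule. LNCaP PRMT5 had a peak at 2 of the 10, RBM15 and YTHDF1, against 3.08% of all protein-coding genes. PC3 PRMT5 had a peak at 1 of 10, RBM15, against 4.59%. PC3 METTL3 had a peak at 1 of 10, VIRMA, against 11.6%, and against 14.6% of 5961 genes within a factor of 2 of the length of VIRMA. LNCaP METTL3 had a peak at 0 of 10, against 0.389%. RBM15 was the 1 member with a peak of both PRMT5 lists, which 1.39% of all protein-coding genes had. When the summit had to lie within 3 kb of a start or end, the PRMT5 counts were the same, 2 and 1 of 10, against 1.92% in LNCaP and 2.42% in PC3, while PC3 METTL3 had 0 of 10, against 2.48%, and LNCaP METTL3 0 of 10, against 0.0749%. By that rule RBM15 was again the 1 member with both PRMT5 lists, against 0.958%. Counts of 0 to 2 of 10 leave little to read, and the genes were chosen with these lists already known.

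The catalytic pair had no peak in reach. The nearest summits to METTL3, whose protein was 1 of the antibody targets, lay 7.51 Mb away in LNCaP METTL3, 1.04 Mb in LNCaP PRMT5, 664 kb in PC3 METTL3 and 1.03 Mb in PC3 PRMT5. In PC3 METTL3, 85.1% of all protein-coding genes had a peak as near as that. The nearest PRMT5 summits of the lines to METTL3 lay on the same side, 6.86 kb from each other. METTL14 was the gene farthest from PRMT5 peaks, with 13.0 Mb in LNCaP PRMT5 and 15.9 Mb in PC3 PRMT5, distances within which 96.8% and 97.6% of protein-coding genes had a peak. Its nearest METTL3 peaks were 27.6 Mb away in LNCaP and 530 kb in PC3.

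The scaffold and adaptor genes without a peak varied widely. WTAP lay 1.40 Mb from the nearest LNCaP METTL3 peak, 212 kb from LNCaP PRMT5, 328 kb from PC3 METTL3 and 874 kb from PC3 PRMT5. ZC3H13, at 24.7 Mb, 3.68 Mb, 375 kb and 5.40 Mb in the same order of lists, was farther than the median gene in every list. RBM15B, the paralog of RBM15, was 24.3 Mb from LNCaP METTL3, 102 kb from LNCaP PRMT5, 30.2 kb from PC3 METTL3 and 832 kb from PC3 PRMT5. It therefore lacked the PRMT5 promoter peak of RBM15. Between 1 Mb before and 1 Mb after RBM15B lay 13 PC3 METTL3 peaks, a number reached by 6.45% of protein-coding genes. For RBM15 itself, the nearest METTL3 peaks were 19.2 Mb away in LNCaP and 32 kb upstream in PC3, so neither METTL3 list had a peak at the place where PRMT5 peaks were called.

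Neither eraser gene had a peak. FTO is 418 kb long, and 50.5% of 1196 protein-coding genes within a factor of 2 of its length had a PC3 METTL3 peak, yet the nearest one to FTO was 355 kb away. The nearest PRMT5 peaks of both lines to FTO were at 1 place, 3.06 Mb downstream, with summits 33 bp apart and folds of 8.14 in LNCaP and 10.9 in PC3. The nearest LNCaP METTL3 peak, 898 kb from FTO, was the nearest that list came to any of the 10 genes. ALKBH5 was 154 kb from LNCaP PRMT5, 211 kb from PC3 PRMT5, 3.09 Mb from PC3 METTL3 and 4.31 Mb from LNCaP METTL3, where the peak had a −log10 q of 265 with a fold of only 3.54. ALKBH5 was the member farthest from a PC3 METTL3 peak, and 98.6% of protein-coding genes had one as near. YTHDF1 was 68.6 kb from PC3 METTL3 and 1.80 Mb from LNCaP METTL3, and 14 PC3 PRMT5 peaks lay between 1 Mb before and 1 Mb after it, a number reached by 4.96% of protein-coding genes.

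Genes on a chromosome without a peak in a list, such as chromosome 19 in LNCaP METTL3, have no distance. They are left out of the medians over protein-coding genes and of the shares of genes with a peak as near. Over the 10 genes the median distance to the nearest peak was 7.16 Mb in LNCaP METTL3, against 8.08 Mb over the protein-coding genes with a distance. It was 624 kb in LNCaP PRMT5, against 1.11 Mb, and 853 kb in PC3 PRMT5, against 772 kb. In PC3 METTL3 it was 342 kb, against 163 kb. The lists differ in length, so these distances are read within a list. The median of the 10 genes was the shorter in both LNCaP lists and the longer in both PC3 lists, and none of these differences was tested.

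**Figure D3:**
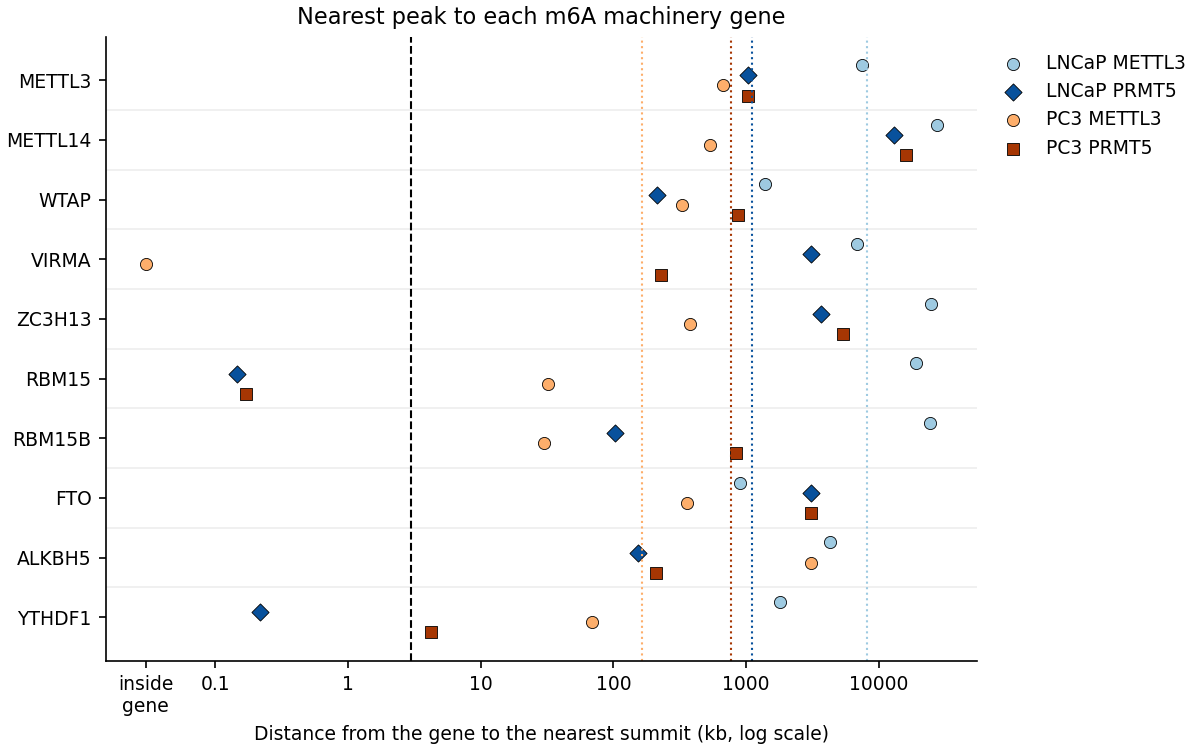
Distance in kb (log scale) from each gene to the nearest summit in each of the 4 peak lists. The dashed line is the 3-kb limit. Dotted lines, in the colour of the list, are the medians over protein-coding genes on chromosomes with a peak in that list. The VIRMA symbol at the left marks a summit inside the gene. RBM15 (LNCaP and PC3 PRMT5), YTHDF1 (LNCaP PRMT5) and VIRMA (PC3 METTL3) lie left of the limit.

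The summits at RBM15 and YTHDF1 sat where PRMT5 summits near gene starts usually sat. Starts were available only for the 15842 of 20033 protein-coding genes with a known strand. Of the LNCaP PRMT5 peaks, 262 had a summit within 3 kb of such a start. Their median position was 106 bp upstream (offset -106 bp, quartiles -244 and -4.25 bp). In PC3 there were 285, with a median offset of -90 bp and quartiles of -317 and 513 bp. The offset of -147 bp at RBM15 in LNCaP lay inside the quartiles and so did -172 bp in PC3, as well as -219 bp at YTHDF1 in LNCaP. Summits inside a promoter window made up 55.3% of the 262 LNCaP and 35.8% of the 285 PC3 peaks. Among peaks with the summit in a promoter window of any gene, RBM15 had a higher fold than 87.7% of 155 in LNCaP and 12.1% of 116 in PC3, and YTHDF1 a higher fold than 43.9% of the 155.

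**Figure D4:**
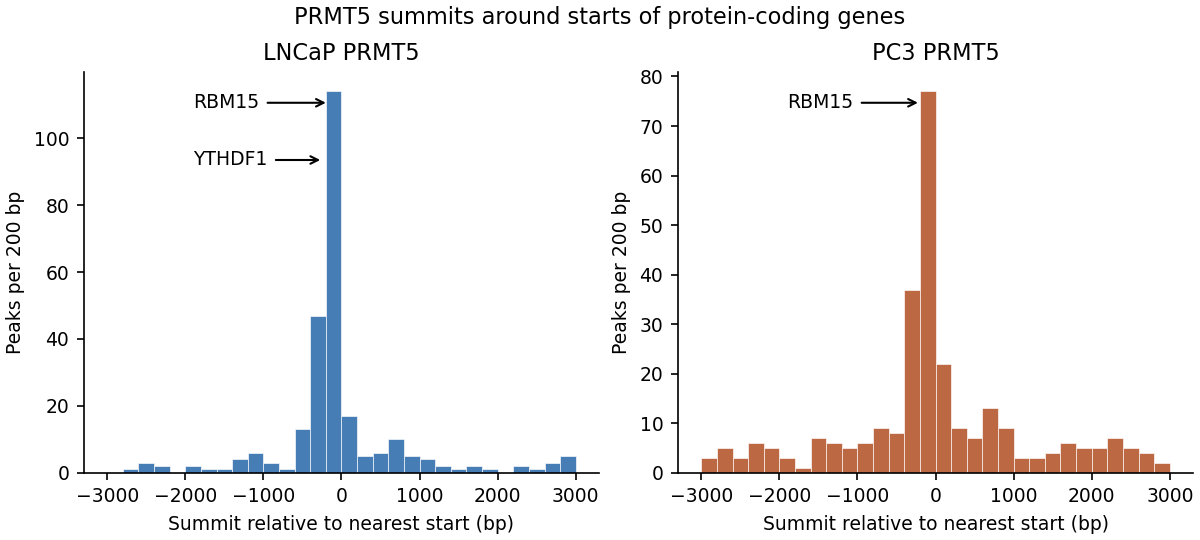
Number of PRMT5 peaks per 200 bp in LNCaP and PC3, by the position of the summit (bp, negative is upstream). Positions are relative to the nearest start of a protein-coding gene with a known strand. Arrows mark the offsets of -147 bp (RBM15) and -219 bp (YTHDF1) in LNCaP and -172 bp (RBM15) in PC3, in the tallest bar or the one upstream of it.

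Both promoters with a PRMT5 peak held CACGTG, and other motifs, near the summit. The table of promoter windows covered 9 of the 10 genes, with 10 windows, as WTAP has a pair. CACGTG was found in the windows of RBM15, YTHDF1 and RBM15B and in none of the other 6 genes. Of the 3 genes with it, 2 had a PRMT5 peak, and of the 6 without it 0 had one. Shares over all genes were taken by window, with the summit inside the window, and so are not the same measure. A LNCaP PRMT5 summit was in 6.28% of windows with CACGTG and in 0.567% of all 35116 windows. For PC3 PRMT5 the shares were 4.47% and 0.444%. The 9 genes were chosen with these lists known and are few, so nothing is read from their split. With 10 bases on either side, on the strand of the gene, the matches compare as follows. They lie at chr1:110339186-110339211, chr20:63216327-63216352 and chr3:51391195-51391220.
RBM15: cactttgggtCACGTGaccgcagagt
YTHDF1: ggacacgcccCACGTGacttccccgg
RBM15B: gccgcagagtCACGTGgcaggacggc

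At RBM15 the match began 181 bp before the start of the gene, and its centre was 31.5 bp from the LNCaP and 6.5 bp from the PC3 summit. At YTHDF1 it began 211 bp before the start, with its centre 10.5 bp from the LNCaP summit. The GC box GGGCGG was also near: at RBM15 the centre of its nearest match was 10.5 bp from the LNCaP summit, nearer than CACGTG, and 14.5 bp from the PC3 summit, and at YTHDF1 it was 38.5 bp from the LNCaP summit. At RBM15B, where no PRMT5 peak was in reach, it began 80 bp before the start. RBM15 alone of the 9 genes held the longer TCACGTGA, which contains CACGTG. A match is a description of letters in the window, and no match says only that these letters are not in it.

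The same letters were common in other promoter windows with a PRMT5 summit. Of 199 windows with a LNCaP PRMT5 summit, 80.4% held CACGTG (95% exact binomial interval 74.2 to 85.7), and of 156 with a PC3 PRMT5 summit, 73.1% did (65.4 to 79.9), against 7.26% of all 35116 windows. TCACGTGA was in 39.7% of the LNCaP windows (32.8 to 46.9) and 42.3% of the PC3 windows (34.4 to 50.5), against 0.980% of all. The intervals cover counting error only, and neighbouring windows overlap and share a summit, so windows are not independent. Windows with a PRMT5 summit also differed in base composition, with a median GC content of 66.3% in LNCaP and 66.0% in PC3, against 58.7% of all windows. The GC box GGGCGG was in 83.9% and 76.9% of them, against 45.0% of all, and among all windows that hold GGGCGG, 9.44% held CACGTG. GC content was 52.7% at RBM15, 77.3% at YTHDF1 and 74.3% at RBM15B.

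Where a window held both a summit and CACGTG, the distance between them was taken. The length of the window limits it, and it was not compared with that of other motifs over these windows. The median distance from the summit to the centre of the nearest match was 23.5 bp over 160 windows in LNCaP and 28.5 bp over 114 in PC3. RBM15 in LNCaP was a little above that median, and RBM15 in PC3 and YTHDF1 in LNCaP were below it. Read the other way, most windows with the letters had no PRMT5 peak. Of 2548 windows with CACGTG, 6.28% had a LNCaP PRMT5 summit, against 0.567% of all 35116 windows. For PC3 PRMT5 the share was 4.47%, against 0.444% of all windows. A PRMT5 summit was thus more frequent in windows with CACGTG than in all windows. Most windows with CACGTG still had none, and RBM15B was like these. Of 344 windows with TCACGTGA, as at RBM15, 79 had a LNCaP and 66 (19.2%) a PC3 PRMT5 summit. Promoter windows with a METTL3 summit numbered 3 in LNCaP and 19 in PC3, and CACGTG was in 2 of these 3 windows and in 1 of these 19 (5.26%). In LNCaP the median fold of peaks in windows with TCACGTGA was 9.46 (59 peaks), with CACGTG but not TCACGTGA 9.27 (65 peaks) and with neither 6.22 (31 peaks). RBM15 lay above the first of these and YTHDF1 below the second. In PC3 the medians were 6.45, 7.82 and 6.45 (48, 37 and 31 peaks), and RBM15 lay below the first.

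The other motifs searched, on both strands, varied between the members. GGGCGG was in the windows of RBM15, YTHDF1, RBM15B, ALKBH5 and WTAP. The NF-Y box CCAAT, in 34.6% of all windows, had 6 matches at RBM15, 1 each at YTHDF1, METTL3, METTL14, WTAP and ZC3H13, and 0 at RBM15B, FTO and ALKBH5. The ETS motif CCGGAAGT (4.14% of all windows) was found at METTL14 and ZC3H13, the NRF1 motif GCGCATGC (3.05%) at METTL3 and ALKBH5, and TATAAA (11.5%) at METTL3. The CRE TGACGTCA (1.85%) and the AP-1 motif TGANTCA (7.71%) were at none of the 9. FTO held none of the motifs searched.

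**Figure D5:**
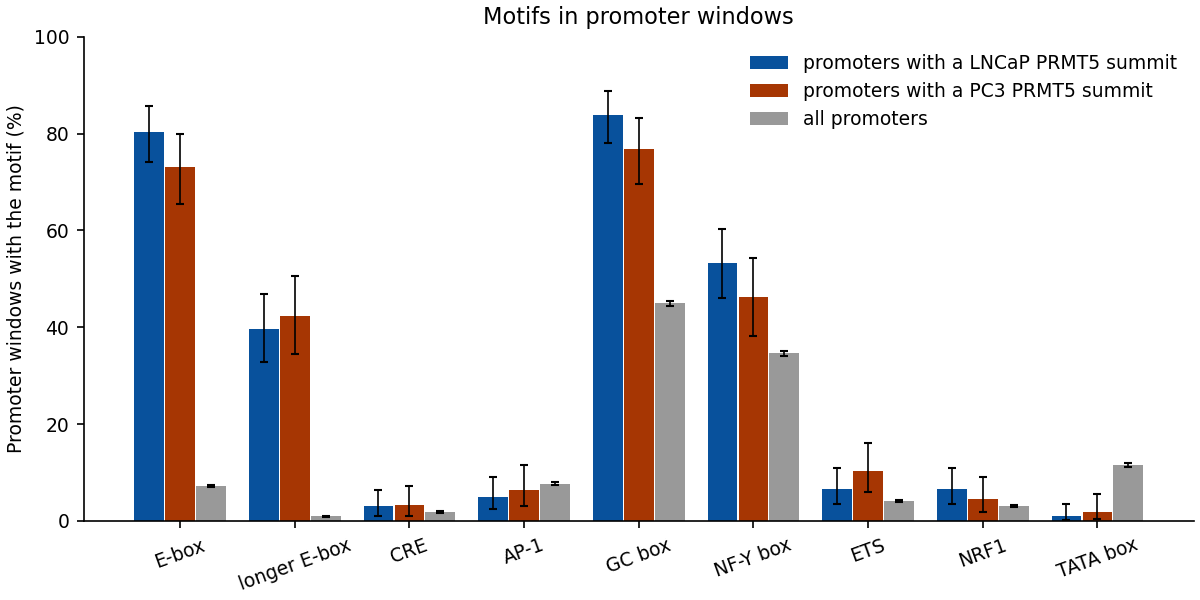
Percent of promoter windows that hold each of 9 motifs, for windows with a LNCaP PRMT5 summit (199), windows with a PC3 PRMT5 summit (156) and all windows (35116); error bars are 95% exact binomial intervals, which cover counting error only. The E-box and the longer E-box stand at 80.4% and 39.7% with a LNCaP summit and 73.1% and 42.3% with a PC3 summit, against 7.26% and 0.980% of all windows.

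Other genes had PRMT5 peaks much like those of RBM15. Peaks at a start or end in both PRMT5 lists and in no METTL3 list were found at 180 other protein-coding genes. The nearest by summed difference in log2 fold over the 2 lists, besides LOC124904276 with the same peaks, were MARCHF8, which encodes a membrane ubiquitin ligase, with folds of 17.9 in LNCaP and 4.07 in PC3 (summed difference 0.147), and SGO1, which encodes a protector of centromeric cohesin, with 14.7 and 3.66 (0.283). A peak at a start or end in LNCaP PRMT5 only was found at 187 other genes, as at YTHDF1. Of these, 4 had the same fold of 7.85, among them LOC124901355, ZNF292 and ATP6V1C1, a subunit gene of the vacuolar proton pump.

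Peaks at other genes of the m6A pathway were counted by the same rule. Of 22 further writers, readers and partners, 3 had a peak in at least 1 list, against 16.7% of all protein-coding genes, and 19 had none, among them the readers YTHDF2, YTHDF3, YTHDC1 and YTHDC2, the E3 ligase-like writer subunit CBLL1 and the single-protein writer METTL16. The PRMT5 lists had 0 of 22 in LNCaP, against 3.08% of all protein-coding genes, and 1 of 22 in PC3, against 4.59%. The METTL3 lists had 0 of 22 in LNCaP, against 0.389%, and 3 of 22 in PC3, against 11.6%. In PC3 METTL3 these were IGF2BP3, a reader that stabilises RNA, with a fold of 4.70 at a summit inside the gene, 11.7 kb from its 3-prime end, RBMX, an RNA-binding protein gene, with 4.70, and ELAVL1, which encodes the RNA-stabilising protein HuR, with 6.22. The RBMX summit was 1.25 kb from the 3-prime end of the gene. The peaks at IGF2BP3 and RBMX were low in the list. Each had a −log10 q of 2.84, with a lower fold in 29.1% and a lower −log10 q in 22.1% of the PC3 METTL3 peaks. The METTL3 peak at ELAVL1 had a −log10 q of 5.07, with a lower value in 75.7% of them. All 3 were 292 bp wide, which is both the smallest and the median width in that list. ELAVL1 also had the PC3 PRMT5 peak, with a fold of 7.06, a −log10 q of 5.44 and the summit 5.99 kb from the upper end of the gene, in another place than the METTL3 peak. The nearest PRMT5 peaks to YTHDF2, a paralog of YTHDF1, were 2.66 Mb away in LNCaP and 1.72 Mb in PC3, and to YTHDF3 1.90 Mb and 7.46 Mb, so the promoter peak of YTHDF1 in LNCaP was not found at its paralogs.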

How the data were processed

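Chromatin signal of the METTL3 and PRMT5 antibodies was measured in 1 library per antibody and line, with 1 control per line. The submitters' processing notes name MACS2 2.1.0 and ChIPseeker, Bowtie 1.1.1, Trimmomatic 0.33 and bcl2fastq 2.17, with the build hg38. Settings, duplicate removal and read shifting: not given in the sources used here. Peaks were called on single libraries with the line's own control as background, per the peak names in the deposited lists. The deposited lists hold, per peak, the authors' score (10 times the −log10 q, to within 1), fold (a ratio over control), −log10 p, −log10 q and summit. The largest q was 0.0495. These values describe and rank peaks within a list.

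Genes, promoter windows and sequences came from RefSeq tables of GRCh38.p14, the build of the lists by its primary coordinates, with Python 3.11.15 and pandas 2.3.3. The strand was known for 15842 of 20033 protein-coding genes and not for VIRMA. Peaks on unplaced contigs and the mitochondrial genome were left out. The functions were tested on simulated data.

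The members, lists and motifs were chosen with earlier results of these data known. Named genes are the members, pathway genes with a peak, genes sharing a peak with a member, and for each member with a peak at an end the 3 genes nearest in fold with peaks in the same lists. No read depth, test or replicate was available; alternatives changed the window, the peaks kept and the part of the gene counted.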

Additional observations from a re-analysis of the deposited data

How the results depend on the processing

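Of 90 recomputed values, 75 stayed within 1.5 times of the value given, or for motif shares within its interval. LNCaP METTL3 kept 0 and LNCaP PRMT5 kept 2 of the 10 members, RBM15 and YTHDF1, under all 8 alternatives. Most of these alternatives only narrow the rule. A count of 0 could rise only with the 5-kb window or when any base of a peak counted. The 75 values that stayed include such counts of 0, so they say little about stability. With only peaks of a fold of at least 5, the PC3 PRMT5 peak at RBM15 was lost, so that PC3 PRMT5 and both PRMT5 lists together had 0 members. With a 5-kb window YTHDF1 was gained, and both counts were 2. When the highest peaks had to overlap by 50% of both, RBM15 was no longer shared (0 members). Counting starts or ends only, or starts only, gave 0 members for PC3 METTL3, as the VIRMA summit is deep in the gene and its strand is not known. Of the 22 further genes, PC3 METTL3 then had 1 and 0, and PC3 PRMT5 had 0 and 0. A −log10 q of at least 3 or a fold of at least 5 left 1 gene, ELAVL1, in PC3 METTL3. The share of all protein-coding genes was taken for the start-or-end rule (2.48% in PC3 METTL3, 2.42% in PC3 PRMT5). It was also taken for PC3 PRMT5 at 5 kb (5.06%). For the other alternatives it was not computed, so nothing is read from their counts. When any base of a peak in a promoter window counted, an alternative chosen after seeing the data like the others on motif shares, distances and most of those on both PRMT5 lists, CACGTG was in 65.8% of LNCaP and 63.2% of PC3 PRMT5 windows. No paired analysis was possible because each group has 1 library and no result comes from a test. Depth was unknown, so missing peaks cannot be told from shallow sequencing.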
